A study of Homo sapiens with 10 samples.

Results

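BRD9 had called peaks at 3332 genomic regions in each of 6 CUT&RUN peak lists, and each region overlapped called SMARCB1 peaks. These shared constant regions are described here. They were found by merging all BRD9 peaks that overlapped by at least 1 bp on chromosomes 1 to 22 and X, which gave 116235 merged regions. Of these, 5090 held a peak in all 6 BRD9 lists, and 3332 of the 5090 also overlapped a SMARCB1 region, that is, a union of SMARCB1 peaks held by both SMARCB1 lists. The other 1758 six-list regions overlapped no such SMARCB1 region and serve below as the comparison set. The regions were chosen by the presence of a call in each list, so that presence is a description and carries no test. A region from which BRD9 disappeared in even 1 list could not be among them. What the choice left free was how wide each region was covered and how many reads it held in each group of cells.

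SMARCB1 is a core subunit of the canonical BAF and PBAF forms of the SWI/SNF chromatin remodellers, which slide and evict nucleosomes, and its loss defines most rhabdoid tumours. BRD9 is a bromodomain protein, a reader of acetylated lysines, and a subunit of non-canonical BAF, the SWI/SNF form that lacks SMARCB1. Rhabdoid tumour lines are known to depend on BRD9.

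In CUT&RUN, an antibody tethers a nuclease to its target so that nearby DNA is cut, released and sequenced. All cells were G401, a human rhabdoid tumour line whose genotype the labels give as SMARCB1(-/-), carrying a construct switched on by doxycycline. The control group, BRD9 after induction of GFP, had 3 samples, and the treated group, BRD9 after induction of SMARCB1, also had 3, with an antibody from abcam. SMARCB1 itself was mapped after SMARCB1 induction in 2 samples with an antibody from Cell Signaling Technologies. Induction time, dose and clone are not given in the labels, and neither is whether replicates came from separate cultures, so each p-value measures only the spread between these samples, which may be technical. The series holds no expression values here against which the line or the induction could be checked.

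Sequencing depth was 10.1 to 13.9 M reads for the BRD9 libraries, and 59.7 and 64.2 M reads for the SMARCB1 libraries. Each list also gives the reads of a control library at its peaks, and this control had 23.1 M reads for all BRD9 lists and 49.6 M reads for both SMARCB1 lists. The control of the SMARCB1 lists is GFP per the deposited file names, while the BRD9 lists name none. Reads are known only inside called peaks, and all densities are reads per kb of covered width and per M library reads, with no spike-in scaling. Among regions that missed the rule by 1 list, 1806 overlapped SMARCB1 and had a peak in 5 of the 6 BRD9 lists. Of these, 802 lacked only GFP replicate 1, 218 GFP replicate 2 and 282 GFP replicate 3, against 164, 190 and 150 for the 3 SMARCB1-induced lists. Their median density in the lists that held them was 3.66, against 4.40 in the shared constant regions, and their median merged width was 1341 bp against 2194 bp. The 10 weakest shared constant regions had lowest scores between 3.99 and 4.02 as −log10 of the false discovery rate, at the floor of the lists.

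Most of the shared constant regions lay inside wider SMARCB1 regions. Their median merged width was 2194 bp, against 5569.5 bp for the widest SMARCB1 region that each overlapped. Their merged width ranged from 376 to 55802 bp and summed to 9.21 Mb, and 2356 of the 3332 (70.7%) lay wholly inside SMARCB1 regions. Another 183 were covered by SMARCB1 regions over less than 50% of their length, and 206 touched more than 1 SMARCB1 region, up to 7. Only 2987 of the 87610 SMARCB1 regions (3.41%) held such a BRD9 region. Those 2987 had a median SMARCB1 density of 1.97 and 2.18 reads per kb and M in the 2 SMARCB1 lists and a median width of 3825 bp. The 84623 others had 1.43 and 1.48, and 1200 bp. The control density moved with this difference, at 0.584 and 0.554 against 0.453 and 0.434, and its part in the result was not tested. SMARCB1 presence was part of the rule, so these levels are given as a description.

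Across the whole set, the lists of the 2 groups overlapped in median BRD9 width and density. The median covered width per region was 1130, 1150 and 1424.5 bp in GFP replicates 1 to 3 and 1359.5, 1334.5 and 1450 bp in SMARCB1-induced replicates 1 to 3. The lowest values came from GFP replicates 1 and 2, GFP replicate 3 lay among the SMARCB1-induced lists, and the group means were 1235 ± 165 and 1381 ± 60.8 bp (SD, n = 3). Median read density was 4.02, 5.37 and 4.26 in the GFP lists and 4.28, 4.43 and 3.93 in the SMARCB1-induced lists, so the highest value was GFP replicate 2 and the groups overlapped (4.55 ± 0.718 and 4.21 ± 0.262, SD, n = 3). Total cover was 5.78, 5.43 and 6.69 Mb against 6.09, 6.01 and 6.38 Mb. The share of library reads inside the regions was 2.85%, 3.69% and 3.56% against 3.08%, 3.29% and 3.11%, again with overlapping groups.

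Peak number was nearly level. The lists held 1.38, 1.60 and 1.32 peaks per region after GFP and 1.36, 1.36 and 1.34 after SMARCB1 induction. GFP replicate 2 alone stood above the rest. Summed over the 3 lists of a group, 598 regions had more peaks after SMARCB1 induction, 1018 had fewer and 1716 had the same number, while 1405 (42.2%) had exactly 1 peak in each of the 6 lists. All 3 SMARCB1-induced lists had more peaks than all GFP lists in 42 regions and fewer in 64. This was not counted over all six-list regions, so these counts have no background share beside them and are a description.

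**Figure D1:**
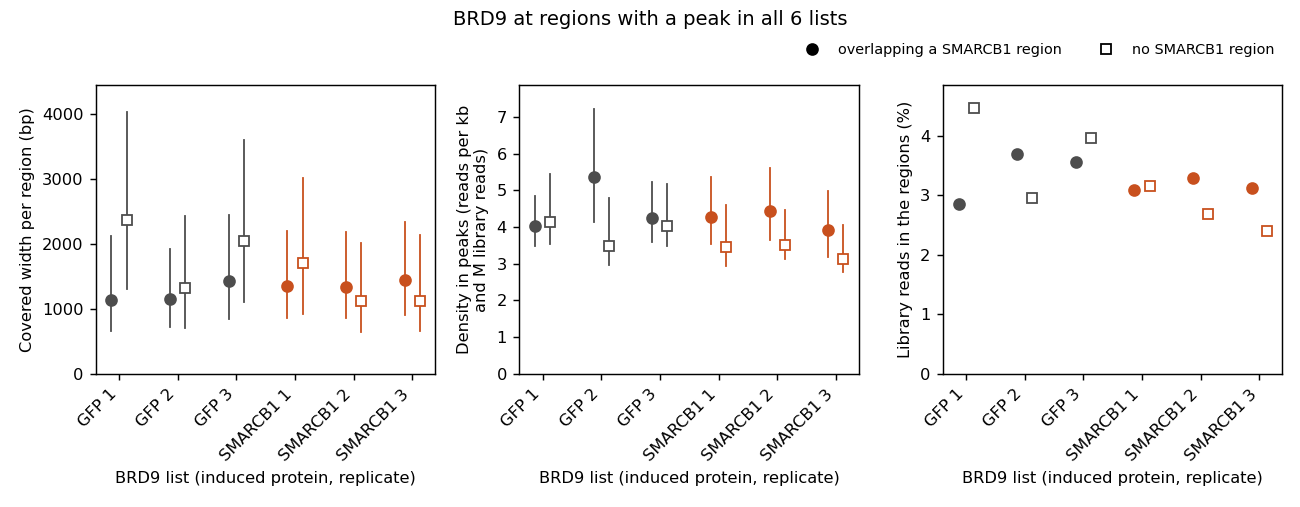
Covered width per region, read density inside peaks and share of library reads for each BRD9 list (x axis), with the median as a symbol and the interquartile range as a bar where drawn. Filled circles are the 3332 regions shared with SMARCB1, whose median width runs from 1130 to 1450 bp with overlapping groups, and open squares are the 1758 regions without SMARCB1.

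Region by region, there were both gains and losses of BRD9 reads. Reads in peaks were tested with edgeR's quasi-likelihood test, scaled by library size and adjusted by the Benjamini-Hochberg method over all 5090 six-list regions. After SMARCB1 induction, reads rose in 223 shared constant regions (6.69%, against 4.40% of all 5090) and fell in 249 (7.47%, against 6.68%), and the other 2860 passed in neither direction. The median fitted log2 difference was −0.02 over the shared constant regions, against −0.30 over all 5090. For 2646 regions (79.4%) the fitted difference was under 1 on the log2 scale in size, and 996 regions had an unadjusted p under 0.05. The median of the lowest read count among a region's 6 lists was 34.

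Rising regions started narrow and ended broad. In the 223 regions with more reads, the median covered width was 829, 960 and 1088 bp in the GFP lists and 2600, 2595 and 2633 bp in the SMARCB1-induced lists. Their median reads per M went from 3.29, 4.38 and 4.50 to 13.4, 14.4 and 13.6, and their median density from 3.94, 4.85 and 4.08 to 5.34, 5.53 and 5.21. These regions were picked for their reads, so the size of the shift is a description. In the 249 regions with fewer reads, the median width was 3285, 3120 and 3626 bp after GFP and 1546, 1521 and 1771 bp after SMARCB1 induction. Their density went from 4.995, 7.22 and 5.52 to 4.04, 4.17 and 3.70.

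All 3 SMARCB1-induced lists lay above all 3 GFP lists in each of the 223 rising regions, and below them in each of the 249 falling regions. Over all 5090, the same held in 224 of 224 rising and 336 of 340 falling regions. The calls rest on the same reads, so this separation largely follows from the test and adds no support. Counted without any test, the lists of the groups stood apart in reads in 671 shared constant regions upward (20.1%, against 13.5% of all 5090) and 619 downward (18.6%, against 19.7%).

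The count of calls depended on single libraries. Without GFP replicates 1, 2 and 3 in turn, 145, 411 and 120 regions rose and 232, 343 and 110 fell; without SMARCB1-induced replicates 1, 2 and 3, the counts were 136, 66 and 83 up and 163, 87 and 96 down. With TMM factors, which moved the median of all 5090 regions up by 0.20 on the log2 scale, 312 shared constant regions rose and 167 fell, so the share of higher calls went from 47.2% to 65.1%.

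Width moved further than density in most regions, called or not. Because reads are width times density, the 2 parts can be set side by side on the log2 scale. Density is known only inside called peaks, so signal below the callers' threshold counts in neither part. How far that threshold sets the balance between width and density was not tested. Covered width moved further than density in 202 of the 223 rising regions (90.6%) and in 186 of the 249 falling regions (74.7%). It did so in 1855 of the 2860 uncalled regions (64.9%) and in 65.5% of all 5090, and regions chosen by the product of both are not independent of either. The median log2 width difference was 1.38 among the rising and −1.04 among the falling regions, and the median log2 density difference was 0.30 and −0.50.

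Covered width itself was tested with limma on log2 bp. It rose in 124 shared constant regions (3.72%, against 2.46% of all 5090) and fell in 70 (2.10%, against 1.87%). Of the 124 wider regions 101 also rose in reads, and all 70 narrower regions fell in reads. The median log2 difference in width was 0.11 over the shared constant regions and −0.05 over all 5090, and 877 shared constant regions had an unadjusted p under 0.05. The groups' lists stood apart in width in 722 regions upward (21.7%, against 14.6% of all 5090) and 409 downward (12.3%, against 13.2%). The width calls moved with single lists: without GFP replicates 1, 2 and 3 in turn, 6, 98 and 75 regions were wider and 1, 52 and 17 narrower, and without SMARCB1-induced replicate 1 the counts were 18 and 18. Without SMARCB1-induced replicate 2 or 3, limma called 0 and 0 regions, with 692 and 661 at an unadjusted p under 0.05. With the replicate number as a block in the fit, limma called 0 wider and 0 narrower regions (smallest limma adjusted p = 0.0538).

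**Figure D2:**
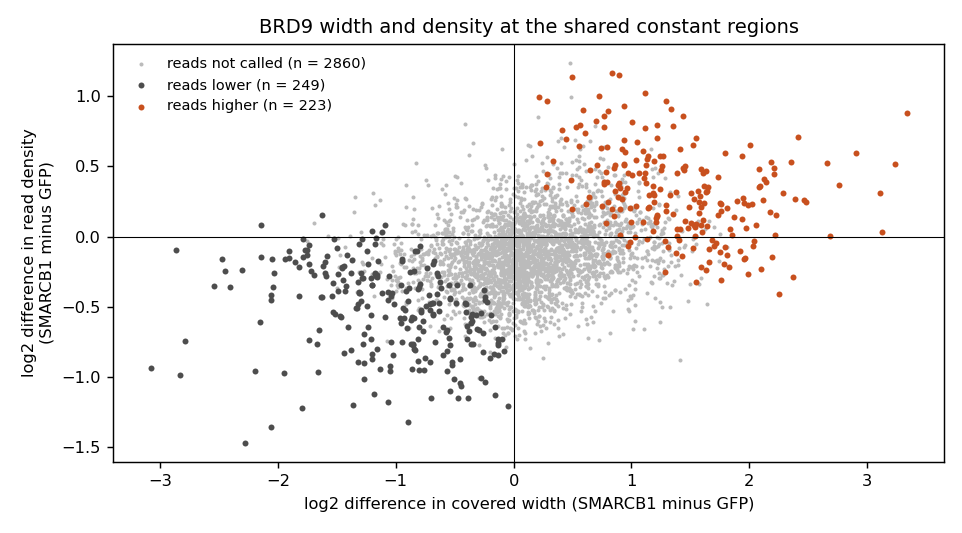
Each point is 1 of the 3332 shared constant regions, placed by its log2 difference in covered width (x axis) and in read density (y axis), SMARCB1-induced minus GFP, and coloured by the edgeR call on reads. The 223 regions with more reads spread mainly to the right and the 249 with fewer mainly to the left and down, and width extends to 3.33 and −3.07 while density extends to 1.23 and −1.47.

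The largest widening was at chr6:140259901-140265943 (hg19, as are all positions here). BRD9 covered 675, 328 and 700 bp there in the GFP lists and 5473, 5371 and 5416 bp in the SMARCB1-induced lists. A short peak at 1 end of the region had become near-continuous cover of about its whole length, and SMARCB1 covered 100% of the region. Width rose by 3.33 ± 0.32 (log2, SE; limma adjusted p = 0.0117) and reads by 4.14 ± 0.34 (edgeR adjusted p = 0.000138). The reads behind it were 18, 12 and 19 against 348, 306 and 300. As for all named regions, reads were counted only over called bp, so GFP reads over the rest of this region are unknown. Density was 2.51, 3.02 and 2.66 against 5.24, 5.62 and 3.98, with no overlap between groups, but did not pass the density test (edgeR adjusted p = 0.0927).

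At chr19:15943319-15949126, width was 573, 413 and 762 bp after GFP and 5002, 5357 and 5600 bp after SMARCB1 induction (log2 difference 3.23 ± 0.26, SE; limma adjusted p = 0.0117). The widest example, chr2:150974579-150985485, held 1563, 835 and 1115 bp against 9594, 10285 and 9400 bp, at a density of 3.97, 4.25 and 4.48 against 4.93, 5.54 and 5.23. Its width rose by 3.11 ± 0.26 (log2, SE; limma adjusted p = 0.0117), while its density difference of 0.31 ± 0.18 did not pass (edgeR adjusted p = 0.362).

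Called cover widened with little difference in density inside the peaks at chr1:8077251-8081476. Reads outside called peaks are unknown, so the GFP signal over the rest of that region is not known. Reads there were 21, 15 and 14 after GFP and 169, 124 and 202 after SMARCB1 induction. Width was 360 ± 37 bp against 3138 ± 326 bp (SD, n = 3), with no overlap (log2 difference 3.12 ± 0.18, SE; limma adjusted p = 0.00864), and density was 4.93, 3.76 and 3.92 against 4.61, 4.24 and 4.15, with overlapping groups. In all these widened regions every base lay in SMARCB1 cover, and the mean BRD9 control density was between 0.958 and 1.86. No base of them was covered by at least 2 GFP lists and not by at least 2 SMARCB1-induced lists.

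The largest narrowing was at chr14:71367226-71372398, where width was 4750, 5097 and 5057 bp after GFP and 1307, 369 and 425 bp after SMARCB1 induction (log2 difference −3.07 ± 0.49, SE; limma adjusted p = 0.0314). Reads per M were 23.8, 42.2 and 34.8 against 4.45, 1.48 and 1.44, and SMARCB1 regions covered 36.4% of the region. The groups were far apart, and SMARCB1-induced replicate 1 kept more cover than replicates 2 and 3.

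At chr10:54009216-54014985, width was 4900, 5340 and 5535 bp against 825, 526 and 924 bp (log2 difference −2.83 ± 0.26, SE; limma adjusted p = 0.0117). Density there also fell, from 6.18, 7.86 and 6.09 to 3.00, 3.94 and 3.43 (edgeR adjusted p = 0.0212). At chr3:37238301-37242311, where SMARCB1 covered 96.0% of the region, width was 3885, 3386 and 3350 bp against 319, 505 and 830 bp (limma adjusted p = 0.0189).

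The region at chr15:35479726-35488154 was made of scattered weak peaks. Width was 4834, 2787 and 6050 bp against 550, 324 and 1175 bp (limma adjusted p = 0.0444), while density hardly differed, at 3.00, 3.23 and 3.01 against 3.00, 3.04 and 2.76 (edgeR adjusted p = 0.812). SMARCB1 regions covered 15.1% of it, and its GFP cover was broken into 3, 3 and 5 peaks.

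The 10 named width changes kept their direction without any 1 list, but limma called none of them without SMARCB1-induced replicate 2 (adjusted p 0.0595 to 0.108) or replicate 3 (0.0708 to 0.118). Without GFP replicates 1, 2 and 3 it lost 8, 2 and 3 of the 10, and without SMARCB1-induced replicate 1 it lost 1. With the replicate number as a block it lost all 10 (limma adjusted p 0.0538 to 0.0690). Measured as the span from first to last peak, 4 of the 10 lost the call, among them the regions on chromosomes 2 (adjusted p = 0.186), 14 (0.236) and 15 (0.253).

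**Figure D3:**
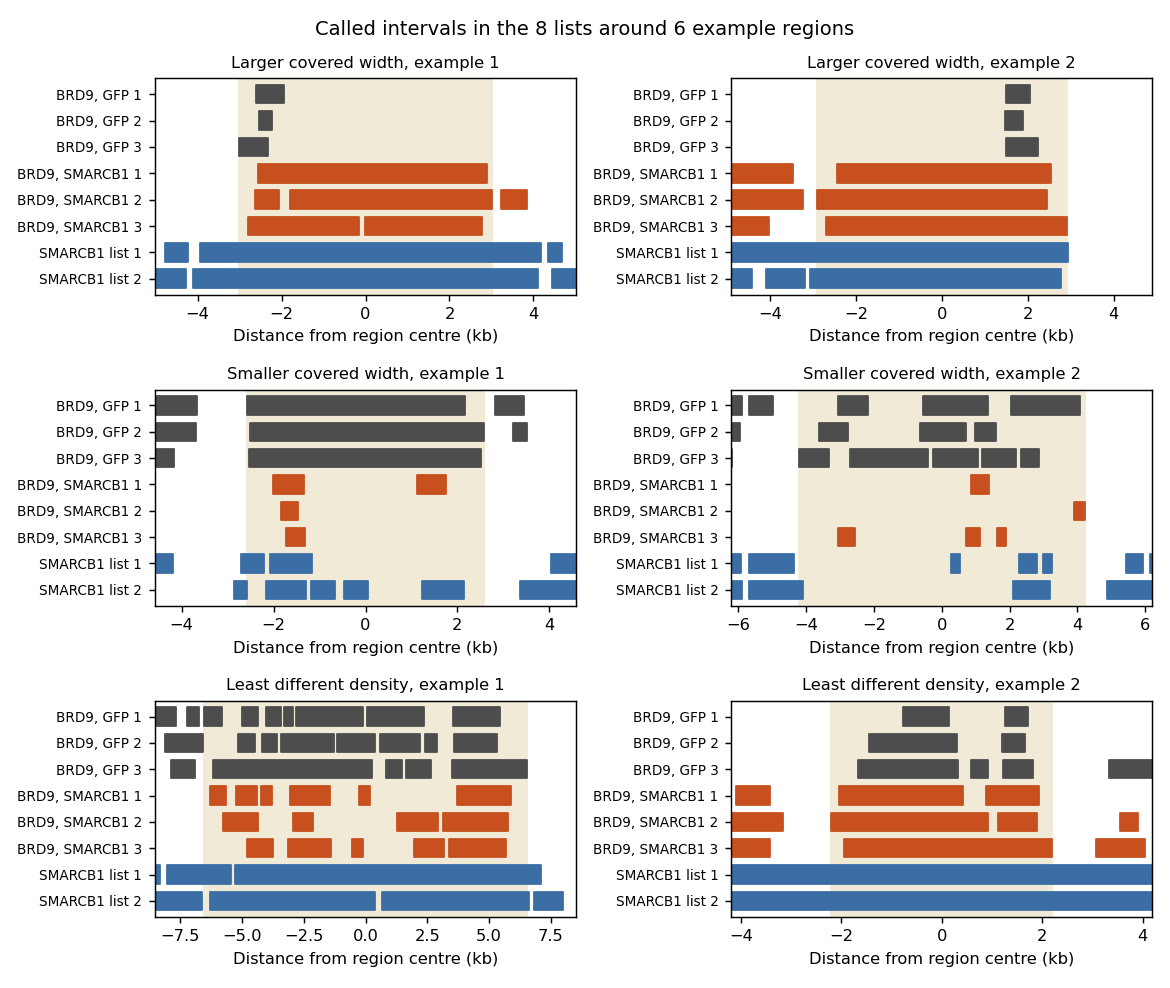
Called intervals in the 6 BRD9 lists and 2 SMARCB1 lists (rows) around 6 example regions, as distance from the region's centre in kb; shading marks the merged region. The top pair are the first 2 widened regions (chromosomes 6 and 19), the middle pair the first 2 narrowed regions (chromosomes 14 and 15), and the bottom pair the first 2 regions with the least different density (chromosomes 5 and 20), where SMARCB1 covers 100% of each region.

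Density alone was tested as well. With covered width as an offset, so that width counts as known, edgeR's quasi-likelihood test called a rise in 24 shared constant regions (0.720%, against 0.472% of all 5090) and a fall in 58 (1.74%, against 1.16%). The median log2 difference was −0.13 over the shared constant regions and −0.18 over all 5090, and 636 regions had an unadjusted p under 0.05. With no test, lists stood apart in 206 regions upward (6.18%, against 4.13% of all 5090) and 556 downward (16.7%, against 18.1%). With TMM factors 92 regions rose and 58 fell, the share of higher calls went from 29.3% to 61.3%, and the median over the shared constant regions became 0.02. Without GFP replicates 1, 2 and 3 in turn, 23, 185 and 9 regions rose and 183, 151 and 41 fell. Without SMARCB1-induced replicate 3, 3 rose and 1 fell, and without replicate 1 or 2 edgeR called 0 and 0, with 464 and 486 regions at an unadjusted p under 0.05.

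Among regions with a called rise in density, the largest was chr15:35653087-35655851, at 3.12, 2.79 and 2.78 reads per kb and M after GFP and 7.04, 8.30 and 5.45 after SMARCB1 induction (log2 difference 1.23 ± 0.21, SE; edgeR adjusted p = 0.00807). Its width overlapped between the groups, at 1235, 326 and 1764 bp against 1521, 1081 and 1162 bp.

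At chr10:17269044-17271464, density was 4.82, 4.02 and 4.14 against 9.05, 10.8 and 9.21 (log2 difference 1.17 ± 0.17, SE; edgeR adjusted p = 0.00628), and reads rose by 1.97 ± 0.28 (edgeR adjusted p = 0.00299). At chr2:227338086-227341167, density was 3.28, 2.77 and 3.22 against 6.61, 7.64 and 6.43 (log2 difference 1.15 ± 0.18, SE; edgeR adjusted p = 0.00628); with peaks within 500 bp merged, its log2 difference was 0.25 (edgeR adjusted p = 0.483). In both regions the SMARCB1-induced lists joined 1 or 2 GFP peaks into 1 peak, SMARCB1 covered 100% of the region, and the groups did not overlap.

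The largest fall in density was at chr1:110267645-110275481, at 7.92, 10.5 and 9.90 after GFP and 3.41, 3.58 and 3.29 after SMARCB1 induction (log2 difference −1.47 ± 0.18, SE; edgeR adjusted p = 0.00221). Width fell there too, from 7102, 7164 and 7278 bp to 1547, 1102 and 1900 bp (limma adjusted p = 0.0125), and reads dropped by 3.71 ± 0.25 on the log2 scale (edgeR adjusted p = 8.61e-05). SMARCB1 regions covered 77.6% of it.

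A contrasting case was chr5:1326276-1329297, where width was nearly the same in all lists, at 2832, 2894 and 2961 bp against 2828, 2705 and 2900 bp. Its density was 9.44, 16.1 and 11.8 against 5.71, 5.98 and 4.59, so the signal thinned over a kept interval (log2 difference −1.20 ± 0.20, SE; edgeR adjusted p = 0.00807). The groups did not overlap, and GFP replicate 2 was the highest list. At chr11:7916399-7919051 both measures fell, with density at 9.43, 13.4 and 9.97 against 4.51, 4.56 and 4.12 (edgeR adjusted p = 0.00604) and width at 2564, 2455 and 2652 bp against 1553, 1211 and 1378 bp (limma adjusted p = 0.0483).

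The 10 named density changes and that of chr19:43811896-43832152, given below, kept their direction without any 1 list. Of these 11, edgeR called none without SMARCB1-induced replicate 1 (adjusted p 0.0511 to 0.130) or replicate 2 (0.0915 to 0.0927), and lost 7 without replicate 3. No call among the 11 was lost when a GFP list was left out.

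**Figure D4:**
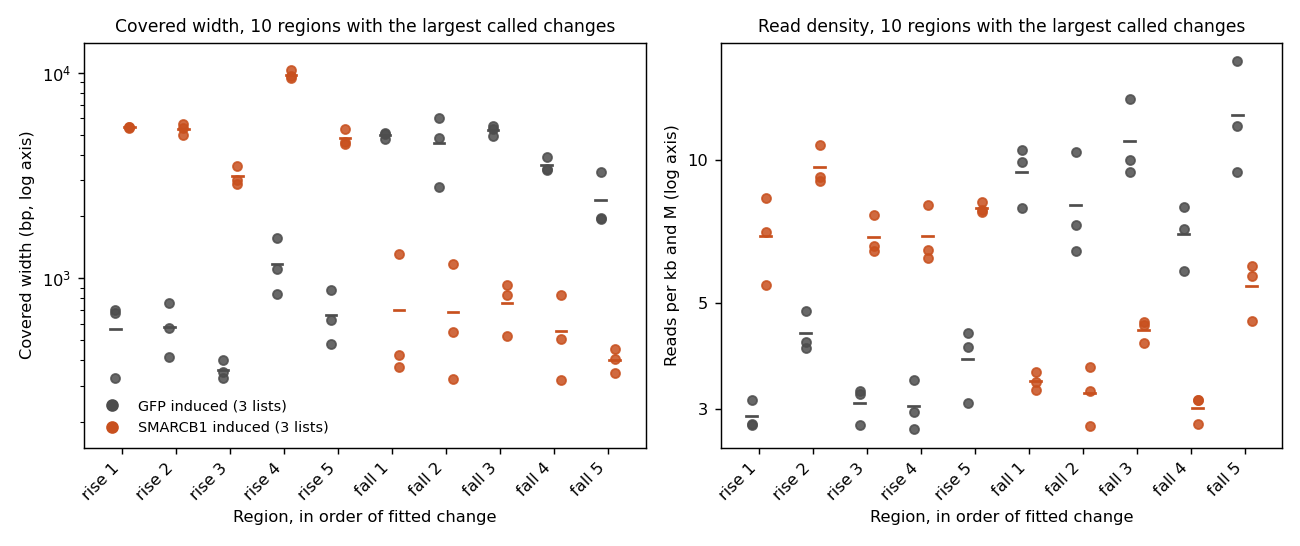
Covered width (left, bp, log axis) and read density (right, reads per kb and M, log axis) in each list for the 5 called rises and 5 called falls that were largest in each measure, in order of fitted change; points are the 3 lists of a group and bars their mean. Groups do not overlap in any of the 20 comparisons, which follows from the rule that chose the regions, and the widths of the first rise go from 675, 328 and 700 bp to 5473, 5371 and 5416 bp.

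Other regions kept their BRD9 density closely. Among the 10% of shared constant regions with the most reads, the smallest density difference was at chr5:82261251-82274323, at 4.44, 5.36 and 4.76 after GFP and 4.97, 5.05 and 4.56 after SMARCB1 induction, with overlapping groups (log2 difference 0.00 ± 0.16, SE; edgeR adjusted p = 0.999). Width there was 9224, 8811 and 11139 bp against 6139, 6540 and 6796 bp, lower in every SMARCB1-induced list, but did not pass the test (limma adjusted p = 0.131). At chr7:25328151-25338475, density was 6.20, 8.003 and 5.74 against 6.35, 6.69 and 6.88, and width 8667, 9513 and 9814 bp against 7659, 7845 and 7314 bp (limma adjusted p = 0.357).

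The widest region, chr19:28203999-28259801, spanned 55802 bp and 4 SMARCB1 regions. BRD9 covered 50102, 42370 and 50281 bp of it after GFP and 50496, 45185 and 47251 bp after SMARCB1 induction, with overlapping groups (limma adjusted p = 0.993). Its reads per M were 346, 464 and 416 against 312, 312 and 288, all lower after SMARCB1 induction, but the fall did not pass the test (edgeR adjusted p = 0.111). The next widest, chr7:25885601-25906703, had 138, 174 and 165 reads per M against 155, 191 and 177, with overlapping groups. At the last of the 3 widest regions, chr19:43811896-43832152, density was 8.37, 10.6 and 8.56 against 4.74, 5.0002 and 3.98 (log2 difference −1.01 ± 0.16, SE; edgeR adjusted p = 0.00796).

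The 5 regions with the highest BRD9 density all lay on chromosome 22 between positions 18717401 and 18884359. The highest, chr22:18883251-18884359, had 27.3, 27.4 and 24.7 reads per kb and M after GFP and 27.2, 26.9 and 21.2 after SMARCB1 induction. The control library was also high at these 5, at 6.81 to 12.1 reads per kb and M, against a median of 1.08 over the shared constant regions, and 9 of the 3332 had a control density above 5. At the highest, SMARCB1 density was 12.1 and 12.9 in the 2 SMARCB1 lists, against 11.4 and 10.9 in the SMARCB1 control library. None of the 5 passed the test on reads, width or density.

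Base by base, most cover was common to both groups, which the rule of a BRD9 peak in every list partly fixes. Such cover was not counted over the regions without SMARCB1, so these shares have no background beside them and are a description. Counting a base as held by a group when at least 2 of its 3 lists covered it, 4612 kb (61.4%) was held by both, 1382 kb (18.4%) by the GFP group alone and 1516 kb (20.2%) by the SMARCB1-induced group alone. SMARCB1 regions covered 95.6% of the common bases, 95.6% of the bases held after SMARCB1 induction alone and 78.3% of those held after GFP alone. SMARCB1 overlap was asked of each region as a whole, and SMARCB1 was mapped here only in SMARCB1-induced cells.

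The cover of the called regions was mostly nested, which the choice by reads in peaks partly fixes. In 203 of the 223 regions with more reads, at least 90% of the GFP cover lay inside the SMARCB1-induced cover, and both edges lay at least 100 bp further out in 157 and 1 edge in 60. In 225 of the 249 regions with fewer reads, at least 90% of the SMARCB1-induced cover lay inside the GFP cover, with both edges at least 100 bp further in in 168 and 1 edge in 75. Among the 2860 uncalled regions, the same nesting held in 1523 and 1033. A base pair covered in all 6 lists existed in 3036 of the 3332 regions (91.1%), and the other 296 were joined through overlapping peaks that share no common base. Those with a common base held 188 of the rising and 224 of the falling regions.

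Summits lay close together by median. The apex of the peak with the most reads differed by a median of 158 to 182 bp between GFP lists, 128 to 134 bp between SMARCB1-induced lists and 140 to 185 bp between groups. It lay within 500 bp in 78.1% to 78.9%, 82.7% to 83.1% and 75.7% to 79.6% of the regions. From the BRD9 apex to the SMARCB1 apex of the first SMARCB1 list, the median distance was 385, 329 and 370 bp for the GFP lists and 290, 296 and 296 bp for the SMARCB1-induced lists. To the second SMARCB1 list it was 408.5, 358.5 and 425.5 bp against 321, 320.5 and 331.5 bp. In each case the 3 SMARCB1-induced lists were all nearer than the 3 GFP lists; with 3 lists a group no permutation test can pass 0.05, and none was made.

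The BRD9 calls were also counted by SMARCB1 level. Ranked by SMARCB1 density over its control and cut into 4 quartile bins of 833, the shared constant regions with more BRD9 reads numbered 5, 25, 73 and 120 from the lowest bin to the highest. Those with fewer reads numbered 46, 66, 79 and 58. The median log2 difference in reads was −0.15, 0.00, 0.01 and 0.16, and Spearman's rho over the 3332 regions, which share their libraries, was 0.15. The lowest bin ran from 0.994 to 2.69, so not every region held more SMARCB1 density than control. Median SMARCB1 enrichment over control was 6.03 in rising, 4.34 in falling and 3.86 in uncalled regions. Ranked by SMARCB1 density alone, rising regions numbered 11, 37, 72 and 103 and falling regions 55, 56, 57 and 81, with a rho of 0.10.

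Width and control signal moved with the SMARCB1 rank. Median merged width was 1533, 2011, 2480 and 2753 bp from the lowest to the highest bin and median BRD9 control density 0.935, 0.980, 1.09 and 1.33, and their part in the result was not tested. Cut into 4 bins by control density instead, rising regions numbered 29, 51, 73 and 70 and falling regions 101, 54, 51 and 43. By merged width, they numbered 6, 38, 79 and 100 rising and 1, 13, 72 and 163 falling.

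**Figure D5:**
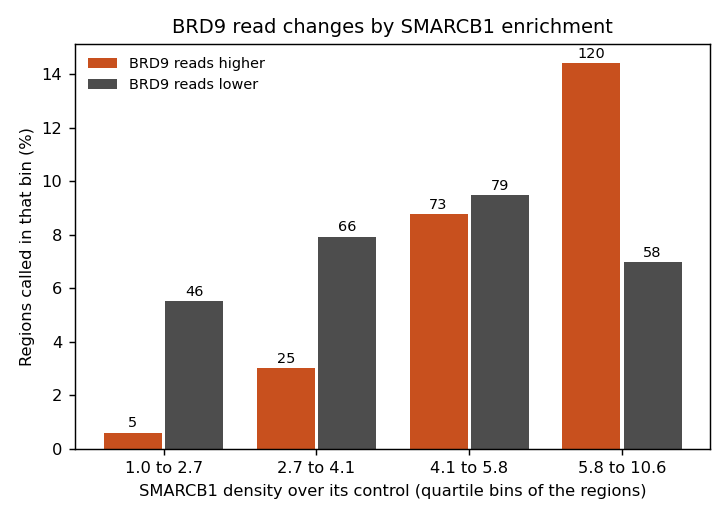
Share of the 833 regions in each quartile bin of SMARCB1 density over its control (x axis) whose BRD9 reads were called higher or lower after SMARCB1 induction (y axis, percent), with the number of regions above each bar. Rising regions go from 5 in the lowest bin to 120 in the highest, and falling regions run 46, 66, 79 and 58.

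Neighbouring regions that changed mostly changed alike. The median gap from one shared constant region to the next was 49.4 kb. Among adjacent pairs within 50 kb in which both were called in reads, 85 of 88 went in the same direction, 30 of them up and 55 down. Of such pairs further apart, 28 of 37 did. Pairs were not counted over the regions without SMARCB1, and no test was made of them, so these counts are a description. How many close pairs lay in the same SMARCB1 region was not counted, so they may not be separate sites. Chromosome 1 held the most regions, 329, followed by chromosome 19 with 310 (9.30%). Chromosome 19 held 2.58% of all SMARCB1 regions. It also held 275 (15.6%) of the six-list regions without SMARCB1, so a high share there was not particular to the shared constant regions. On chromosome 19, 2 regions rose in reads and 17 fell, and on chromosome 6, with 218 regions, 32 rose and 10 fell. Over all chromosomes 223 rose and 249 fell. Calls by chromosome were not set against all six-list regions there, and no test was made by chromosome.

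The lists of a group ranked the shared constant regions alike. Spearman's rho of density over the 3332 regions was 0.70 to 0.72 within the GFP lists and 0.78 to 0.81 within the SMARCB1-induced lists, against 0.57 to 0.64 between lists of different groups. Over the 1758 regions without SMARCB1, the same ranges were 0.67 to 0.78, 0.71 to 0.75 and 0.68 to 0.77. All BRD9 lists share 1 control library.

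BRD9 regions without SMARCB1 had few upward calls in the same fit. Of those 1758, reads rose in 1 and fell in 91, width rose in 1 and fell in 25, and density rose in 0 and fell in 1 (231 at an unadjusted p under 0.05, edgeR). Without GFP replicates 1, 2 and 3 in turn, 22, 564 and 19 fell in reads, 0, 48 and 3 in width and 18, 245 and 2 in density. Without SMARCB1-induced replicates 1, 2 and 3, 152, 11 and 15 fell in reads, 15, 0 and 0 in width and 0, 0 and 0 in density, and at most 3 regions rose in any of these fits. Their median reads per M were 10.2, 5.04 and 8.72 after GFP and 6.10, 4.14 and 3.96 after SMARCB1 induction, where GFP replicate 2 lay among the SMARCB1-induced lists. The median fitted log2 difference in reads was −0.58 there and −0.02 at the regions shared with SMARCB1. The control library differed between these sets as well, with a median density of 0.454 without SMARCB1 and 1.08 with it, and its part in the result was not tested. No test compared the sets as wholes.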

How the data were processed

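Each of the 8 peak lists used comes from 1 sample, and groups follow the sample titles. The lists give peak positions, raw read counts of the sample and a control as deposited by the authors, the same as RPKM per the file headers (over end minus start), and a −log10 false discovery rate as score, also deposited by the authors. BWA 0.7.12-r1039, SAMtools, bedtools, DiffBind and edgeR and the builds hg19/GRCh37 and ASM584v2 are named in the submitters' processing notes without roles. The peak caller is not given in the sources used here. Library sizes were recovered from counts and RPKM.

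Reads, width and density per region were computed from the counts and positions with Python 3.11.15 and pandas 2.3.3, and fitted over 5090 regions in R 4.3.3 with edgeR 4.0.16 (reads, density) and limma 3.58.1 (width), 3 against 3 lists, threshold 0.05 after Benjamini-Hochberg adjustment. In simulated data over the 5090 regions, 98% to 100% of planted 4-fold changes were called. At 2-fold only 56% of rises and 32% of falls in density were called, and 42% and 40% in width. The simulated counts had a fixed dispersion and the simulated widths a fixed SD, neither estimated from the data, so real power may differ. In the data, the width difference of −2.06 (log2) at chr5:103505407-103509981 did not pass (limma adjusted p = 0.0832). Named regions were the 5 of highest density rank and, with groups apart, the 5 largest called rises and falls in density and in width. Added to these were the 3 with the least different density among the 10% with the most reads, and the 3 widest. The examples on chromosomes 8 and 20, chr6:11194205-11196056 and chr19:28719924-28722085 are only in the figures. The members, lists and tests were chosen with earlier results of these data known. Alternatives covered score, overlap, merging, SMARCB1 reference, scaling, DESeq2 1.42.0, filters, single lists and a replicate block. SMARCB1 in GFP cells and the IgG sample were not analysed here. Gene names, promoters, motifs and sequences were not used, for want of an hg19 annotation.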

Additional observations from a re-analysis of the deposited data

How the results depend on the processing

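Of 141 alternative values for the main results, 99 moved by less than 1.5 times (counts) or 1 SD of the replicates (medians) and 42 moved further. Restricting every list to its best-scoring 50% left 2156 shared constant regions, with 135 higher in reads, 81 wider and 12 denser, and merging peaks within 500 bp left 15 denser. DESeq2 called 468 higher in reads and 101 denser, and TMM factors 92 denser. Leaving out each BRD9 list in turn gave 66 to 411 regions higher and 87 to 343 lower in reads, 0 to 98 wider, 0 to 52 narrower, 0 to 185 denser and 0 to 183 less dense. The number of shared constant regions without 1 list was 3356 to 4143. Median log2 differences without 1 list were −0.18 to 0.00 (density) and 0.06 to 0.20 (width). The sign of the median density difference (−0.11 over means of log2 values, with no test) turned in 3 settings: centred on all 5090 regions (0.03), per kb of merged region (0.01) and without GFP replicate 2 (0.0012). Peaks per region also turned without GFP replicate 2 (0.0039 in place of −0.0786). The labels do not say whether replicate numbers pair the samples, and the correlations do not settle it. Deviations of same-numbered lists correlated at 0.42, 0.19 and −0.05 for reads and at 0.33, 0.13 and −0.00096 for width. For reads, those of differently numbered lists correlated at −0.40 to 0.25. With the replicate block, limma called 0 wider and 0 narrower regions (smallest adjusted p = 0.0538), none of the 10 named width changes among them, with 878 at an unadjusted p under 0.05, and edgeR called 63 denser, 165 less dense, 297 higher and 304 lower in reads. The 31 named regions had 433 alternative values, many of them for regions without a call in the main setting. Only 11 density and 10 width results were called there and could lose the call, and 78 of their alternative values did. No called one turned direction. Why these counts moved was not tested. Reads outside called peaks are unknown, so a change below the callers' threshold would not be seen.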
